A study of Mus musculus with 10 samples.

Results

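The genes that encode the chains of collagen were followed in cardiomyocyte RNA from infarcted mouse hearts. Every protein-coding gene of GENCODE M21 with a symbol of the form Col, a number, a and a number was taken by its Ensembl identifier from the count table, which gave 44 collagen genes of 51789 genes in all (21780 of them protein-coding). The study asked how the kinase GRK5 in heart muscle cells changes the transcriptome after myocardial infarction (MI). Cardiomyocytes were isolated on day 4 after MI from 5 TgGRK5 mice, which overexpress GRK5 through a transgene restricted to cardiomyocytes, and from 5 non-transgenic littermate controls (NLC), with 1 library per mouse. All 10 mice had an MI, so no uninjured heart enters the comparison, and the labels give neither the age nor the sex of these mice nor the promoter of the transgene.

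Collagen chains wind around each other into a helix in which glycine opens each repeated Gly-X-Y triplet, because no larger residue can be packed at the centre. Fibrillar collagens (types I, III, V, XI and others) form the cables of scar and interstitium, type IV forms the sheet of basement membranes around muscle cells and vessels, and FACIT collagens sit on the surface of fibrils. In the heart, fibrillar collagens are made mainly by fibroblasts and, after infarction, by myofibroblasts, whereas endothelial and mural cells are main sources of type IV.

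The gene sequences show the repeat that the symbols alone did not use. All 44 genes had an unbroken run of at least 20 triplets that open with a glycine codon, and so did 20 of 21668 other protein-coding genes with a coding transcript. The longest run held 337 to 344 triplets in fibrillar genes except Col24a1 (216) and Col27a1 (217), and 39 to 66 triplets in the 6 type IV genes. Of 1917 internal coding exons of collagen genes 469 were exactly 54 bases long (24.5%), against 0.443% of 156602 such exons of other genes. That exon length made up 48.6% of the fibrillar exons and 4.23% of the type IV exons. Of all internal coding exons, 63.9% in collagen genes and 13.7% in other genes were a multiple of 9 bases, the length of 1 triplet. Exons of this length from 4 fibrillar genes are printed to show the repeat, 5′ to 3′ on the coding strand of GRCm38, with the glycine codons in capitals. They are exon 8 of Col1a2 (chr6:4515481-4515534), exon 7 of Col3a1 (chr1:45325805-45325858), exon 16 of Col5a1 (chr2:27965597-27965650) and exon 16 of Col11a1 (chr3:114112035-114112088), and all 4 genes lie on the plus strand.
Col1a2: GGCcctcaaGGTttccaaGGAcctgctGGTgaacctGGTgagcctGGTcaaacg
Col3a1: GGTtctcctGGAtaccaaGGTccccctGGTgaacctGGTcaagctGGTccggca
Col5a1: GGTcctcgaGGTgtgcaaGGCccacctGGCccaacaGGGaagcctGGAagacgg
Col11a1: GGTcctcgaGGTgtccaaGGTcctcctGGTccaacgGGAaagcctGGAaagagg
Position by position, the Col5a1 and Col11a1 exons shared 45 of 54 bases (83.3%), and the Col3a1 and Col5a1 exons, the least alike pair, shared 29 (53.7%). Of these shared bases 15 and 13 lay in the glycine codons, which open with GG in every exon printed, so part of the identity was fixed by the choice of exons.

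The 3′ UTRs of the collagen genes were searched for matches to the seed of miR-29, a microRNA family known to repress collagen messages. The mature microRNAs share a seed (bases 2 to 8, in capitals); their sequences and positions are from RefSeq on GRCm38.p6 (chr6:31062673-31062694, minus strand; chr1:195037091-195037113, plus strand; chr1:195037600-195037621, plus strand).
miR-29a-3p: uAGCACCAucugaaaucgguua
miR-29b-3p: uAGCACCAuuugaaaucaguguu
miR-29c-3p: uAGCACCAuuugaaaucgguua
The match to the seed, TGGTGCT, was searched on the transcript strand only, in 1 coding transcript per gene. It occurred 42 times in 23 of the 44 genes (52.3%), against 2396 of 21668 other genes (11.1%). The median 3′ UTR was 920.5 bases in collagen genes and 726 bases in other genes, and per kilobase of 3′ UTR there were 0.767 and 0.106 matches. Of the 11 fibrillar genes 9 held a match, as did 6 of 6 type IV genes, 1 of 6 type VI genes and 0 of 4 transmembrane collagens. In the transcript used, 3 collagen genes had no 3′ UTR: Col11a2 (fibrillar), Col6a3 (type VI) and Col18a1. They could hold no match but are counted as genes without one. The 3′ UTR of Col25a1 (transmembrane) was only 30 bases long. Examples are printed with 10 bases before the match and 7 after it, all within 1 exon of the 3′ UTR (GRCm38): Col3a1 (chr1:45348972-45348995, plus strand), Col4a1 (chr8:11199755-11199778, minus strand), the first match of Col4a2 (chr8:11448349-11448372, plus strand), and the first match of Col5a1 (chr2:28037994-28038017, plus strand).
Col3a1 site: aatgtctcaaTGGTGCTataataa
Col4a1 site: cgtcacaacaTGGTGCTactcccc
Col4a2 site: aaggccacgtTGGTGCTtatcctt
Col5a1 site: tatgaacattTGGTGCTgaatttt
These matches describe the sequence. Whether the microRNAs acted on them in these cells was not tested.

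Across the series, library totals ran from 7968779 (NLC-MI replicate 3) to 23381527 counts (NLC-MI replicate 2). Levels are given as CPM, counts scaled to a common library size with edgeR's TMM factors, and the floor of 3 counts corresponds to 0.121 to 0.393 CPM. Grk5 lay between 46.5 and 73.1 CPM in the control libraries and between 552 and 1700 CPM in the transgenic ones, so no library went against its label. The labelled cell type was checked with 6 cardiomyocyte markers, which were detected in every library and summed to between 30870 and 87950 CPM, with Myh6 (a myosin of heart muscle) averaging 29590 CPM over the controls and 21180 CPM over the transgenic mice. Markers of other cells were present too. All 6 fibroblast, 4 myofibroblast, 6 endothelial, 5 mural, 5 macrophage and 3 mesothelial markers had counts in every library. Y-linked Ddx3y averaged 73.7 CPM over the controls (67.33 to 86.65) and 75.1 CPM over the transgenic mice (63.44 to 92.67). Every library thus held Y-linked RNA, and Xist reached at most 0.916 CPM in any of them.

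Collagen messages were abundant in this RNA and their amount differed several fold between mice of the same genotype. Collagen genes took 3.14%, 3.18%, 0.860%, 1.23% and 0.483% of all counts in NLC-MI replicates 1 to 5, and 1.74%, 3.16%, 0.522%, 1.35% and 1.17% in TgGRK5-MI replicates 1 to 5. The means were 1.78% ± 1.29 in NLC-MI and 1.59% ± 0.983 in TgGRK5-MI (SD, n = 5 each), and the groups overlapped over nearly their whole range. Col1a1, Col1a2 and Col3a1 together made up 52.4% to 71.5% of the collagen counts. In bulk RNA, fewer cells of a type and less RNA per cell cannot be told apart.

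**Figure D1:**
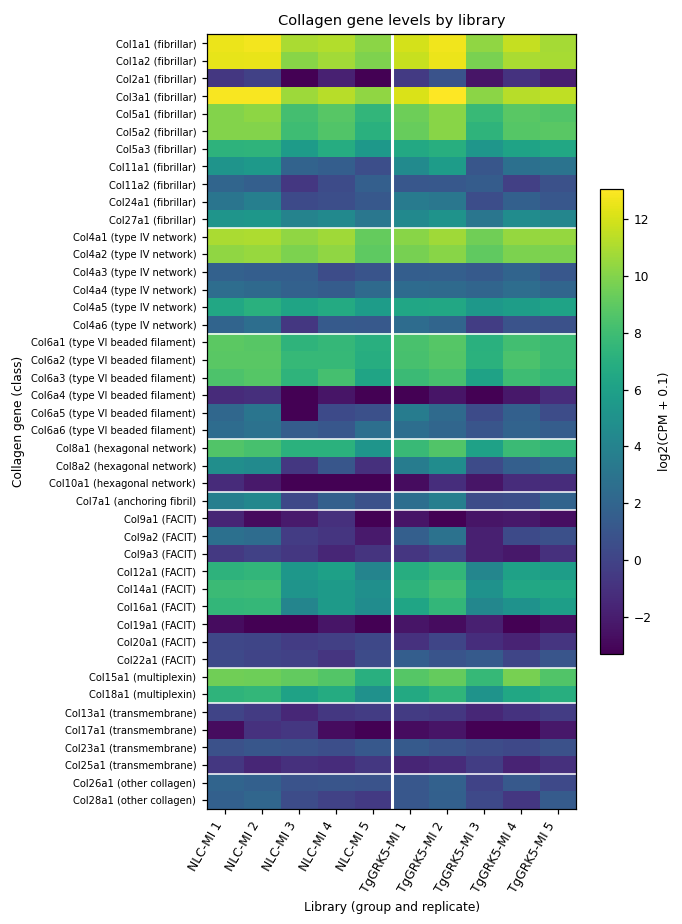
Heat map of all 44 collagen genes (rows, by class) in the 10 libraries (columns, NLC-MI left and TgGRK5-MI right of the white line), coloured by log2(CPM + 0.1). NLC-MI replicates 1 and 2 and TgGRK5-MI replicate 2 are the brightest columns for most fibrillar and FACIT genes and for Col6a1, Col6a2 and Col6a3.

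Per kilobase of exon, the level ran from a mean of 540.1 CPM per kb for Col1a1 through 410.3 for Col3a1, 237 for Col1a2, 189.7 for Col4a1 and 147 for Col4a2. Col15a1, Col5a1, Col6a1, Col5a2 and Col6a2 followed, from 78.4 down to 34.8 CPM per kb (the last for Col6a2). The order depends on the transcript length used. With the longest transcript in place of all exons Col3a1 came first at 724 CPM per kb, then Col1a1 at 598 and Col1a2 at 549.8, and the highest 10 genes were the same. At the other end, 8 of the 44 genes did not pass edgeR's filter on low counts: Col2a1 (the fibrillar collagen of cartilage), Col6a4, Col9a1, Col9a3, Col10a1 (a collagen of hypertrophic cartilage), Col17a1 (a hemidesmosome protein), Col19a1 and Col25a1. Their highest count in any library was 39, for Col2a1 in TgGRK5-MI replicate 2, and Col19a1 did not exceed 3 counts in any of the 10 libraries.

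No collagen gene passed the study's threshold for a difference between the genotypes. Of the 36 genes that passed the filter, edgeR's quasi-likelihood test gave Col22a1 as higher and Col20a1 as lower in TgGRK5-MI at an unadjusted p under 0.05, and 0 genes had an adjusted p under 0.10. Among all 15232 genes tested, 1.77% were higher and 2.08% were lower at the unadjusted threshold, and 0.0788% had an adjusted p under 0.10, so 1 of 36 in each direction is close to that background. None of the 36 collagen genes had groups that did not overlap, where 1.00% of all genes tested did. DESeq2's Wald test and limma-voom also gave 0 collagen genes with an adjusted p under 0.10. Below 0 were 28 of 36 log2 fold changes (TgGRK5-MI minus NLC-MI), with a median of -0.12 against 0.0013 over all genes. That median was -0.44 without TgGRK5-MI replicate 2, 0.22 without NLC-MI replicate 2, 0.093 without NLC-MI replicate 1 and 0.074 without TgGRK5-MI replicate 3, so its direction rested on single libraries. With 1 library per mouse, edgeR's p-values set the difference between the groups against the spread among mice of the same group.

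**Figure D2:**
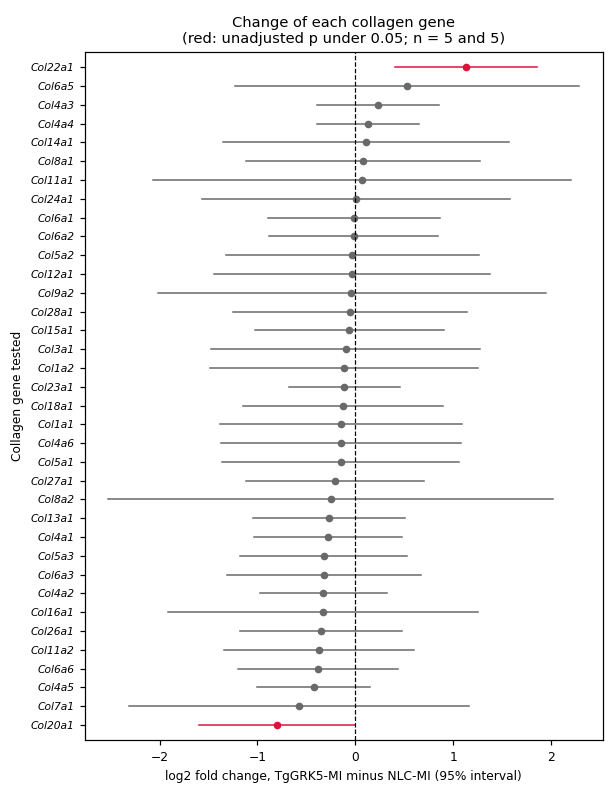
Log2 fold change of TgGRK5-MI over NLC-MI with a 95% interval derived from edgeR's F statistic for the 36 collagen genes tested (n = 5 in each group), sorted by size, with genes at an unadjusted p under 0.05 in red. The intervals of 34 genes hold 0, and those of Col22a1 and Col20a1 do not.

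The intervals were wide. For 17 of the 36 genes the 95% interval reached beyond a log2 change of 1 both upwards and downwards, so a doubling and a loss of 50% were both within the error of this design, and for 6 genes it stayed within 1 in both directions. Col4a4, a type IV chain best known from the kidney's filter, had the narrowest interval (-0.39 to 0.65), and Col8a2, a short-chain collagen of vessels and cornea, the widest (-2.52 to 2.03).

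Fibrillar collagens differed more between mice of 1 genotype than between the genotypes. Col1a1 (ENSMUSG00000001506, chr11:94936224-94953042), a chain of type I collagen, the main collagen of scar, was at 6157, 6992, 2018, 2272 and 1183 CPM in NLC-MI and at 4068, 6541, 1287, 3118 and 1808 CPM in TgGRK5-MI (replicates 1 to 5). Col3a1 (ENSMUSG00000026043, chr1:45311538-45349706), the type III chain of early granulation tissue, was at 7668, 7774, 1577, 2501 and 1312 CPM in NLC-MI and at 4447, 8502, 1199, 2465 and 2832 CPM in TgGRK5-MI. In both genes NLC-MI replicates 1 and 2 and TgGRK5-MI replicate 2 were the highest libraries, NLC-MI replicate 5 and TgGRK5-MI replicate 3 the lowest, and the groups overlapped. The fold (TgGRK5-MI over NLC-MI) was 0.903 for Col1a1 (95% interval 0.383 to 2.13) and 0.933 for Col3a1 (0.359 to 2.43), with an adjusted p of 1.00 for both from edgeR. Col1a2, the partner chain of Col1a1, followed the same order (5673, 5824, 1106, 1736 and 932 CPM in NLC-MI, and 3282, 6053, 871, 2020 and 1904 CPM in TgGRK5-MI).

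The type V chains, which set the diameter of type I fibrils, had the same layout at a lower level. Col5a2 was at 1040, 1040, 248, 384 and 132 CPM in NLC-MI and at 600.3, 1146, 160.5, 422 and 457 CPM in TgGRK5-MI, a fold of 0.979 (95% interval 0.399 to 2.40). Col5a1 spanned 172.8 to 1231 CPM in NLC-MI and 206 to 1129 CPM in TgGRK5-MI. Its exons share 212 bases with genes on the other strand, and the strand setting of the counting is not given in the sources used here. None of the 10 fibrillar genes tested had an unadjusted p under 0.05 in edgeR. Their lowest p was 0.417, for Col11a2, a chain of cartilage fibrils that was listed at 4 to 90 counts.

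**Figure D3:**
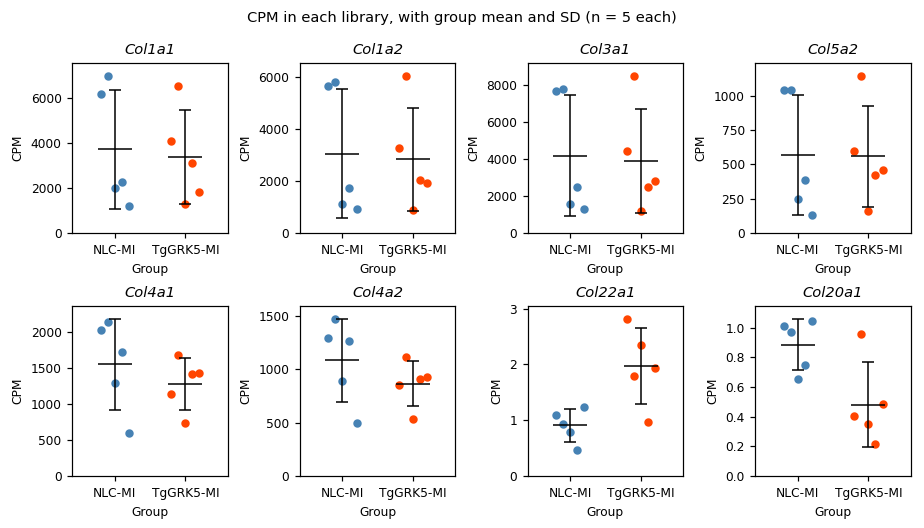
CPM in each library for 8 collagen genes in NLC-MI and TgGRK5-MI (points, 1 per mouse), with the mean (bar) and SD (whiskers), n = 5 each, and every axis from 0. The fibrillar genes Col1a1, Col1a2, Col3a1 and Col5a2 each have NLC-MI replicates 1 and 2 and TgGRK5-MI replicate 2 at the top, and Col22a1 and Col20a1 differ most between groups but overlap.

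That library order ran through much of the family. For 30 of the 36 genes tested the highest value was in NLC-MI replicate 1, NLC-MI replicate 2 or TgGRK5-MI replicate 2, and for 21 genes these were the 3 highest libraries. How often this order held over all genes tested was not counted. It was not particular to the chains: the summed genes of collagen biosynthesis had the same 3 highest libraries (6933, 6499 and 7303 CPM). The lowest value was in NLC-MI replicate 5 for 15 genes and in TgGRK5-MI replicate 3 for 9 genes. As a measure of spread, the highest library was divided by the lowest. For Col1a1 this ratio was 5.91, larger than in 94% of the genes tested with more than 3 counts in every library, and for Col3a1 it was 7.09. It was largest for Col8a2 (69.9), Col11a1 (36.8) and Col7a1 (18.2), the chain of skin's anchoring fibrils. It was smallest for Col4a4 (2.16), Col23a1 (2.20, a transmembrane collagen), Col4a3 (2.87) and Col4a2 (2.93). Over the 32 collagen genes with more than 3 counts in every library the median ratio was 6.22, and over all such genes tested it was 2.26.

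The median ratio of the highest to the lowest library was 3.085 over the 6 type IV chains and 7.11 over the 10 fibrillar genes tested, though Col4a6 reached 11.1, and no type IV chain passed the test. Col4a1 (ENSMUSG00000031502, chr8:11198423-11312826), with Col4a2 the standard chain of basement membranes, was at 2030, 2137, 1285, 1723 and 592 CPM in NLC-MI and at 1135, 1685, 732, 1416 and 1428 CPM in TgGRK5-MI. Col4a2 (ENSMUSG00000031503, chr8:11312805-11449287) was at 1292, 1466, 889, 1265 and 499.8 CPM in NLC-MI and at 846, 1113, 534, 905 and 925 CPM in TgGRK5-MI. NLC-MI replicate 5 was the lowest library for both, below every TgGRK5-MI library, and 3 NLC-MI libraries were above every TgGRK5-MI library. The fold was 0.824 for Col4a1 (95% interval 0.488 to 1.39) and 0.799 for Col4a2 (0.509 to 1.25), with an edgeR adjusted p of 1.00 for both and exact two-sided permutation p = 0.611 and 0.429.

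The minor type IV chains did not share a direction. Col4a5, an X-linked chain of specialised basement membranes, was at 91.5, 137, 76.0, 103 and 53.0 CPM in NLC-MI and at 82.7, 89.8, 42.2, 54.6 and 73.4 CPM in TgGRK5-MI (fold 0.744, 95% interval 0.499 to 1.11, edgeR adjusted p = 1.00). Its unadjusted p was under 0.05 in 3 of the 20 alternatives to the fit used here. Col4a3 and Col4a4, its partners in the kidney, were at 1.31 to 3.77 CPM and 2.67 to 5.77 CPM, with folds of 1.17 (95% interval 0.762 to 1.81) and 1.09 (0.764 to 1.57). Reads of Col4a3 may include an antisense gene, C430014B12Rik, with which it shares 563 exon bases.

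Col4a1 and Col4a2 lie head to head, and their ratio was nearly fixed. Whether the layout bears on the ratio was not tested. Their start sites in RefSeq (GRCm38.p6) are at 11312826 and 11312805 on chromosome 8, so the genes overlap by 22 bases at their ends, and reads there cannot be assigned without strand. Per kilobase of exon the ratio of Col4a1 to Col4a2 was 1.39, 1.29, 1.28, 1.21 and 1.05 in NLC-MI and 1.19, 1.34, 1.21, 1.39 and 1.37 in TgGRK5-MI. It thus varied 1.33-fold over libraries in which Col4a1 itself varied 3.61-fold. The 300-base RefSeq window around each start, most of it upstream, is printed, each read 5′ to 3′ on its own gene's strand, because the windows share 78 bases (Col4a1, chr8:11312777-11313076, minus strand; Col4a2, chr8:11312555-11312854, plus strand). Capitals mark the CCAAT box, the GC box (searched as GGGCGG) and the TATA box (searched as TATAAA), each on either strand.
Col4a1 window: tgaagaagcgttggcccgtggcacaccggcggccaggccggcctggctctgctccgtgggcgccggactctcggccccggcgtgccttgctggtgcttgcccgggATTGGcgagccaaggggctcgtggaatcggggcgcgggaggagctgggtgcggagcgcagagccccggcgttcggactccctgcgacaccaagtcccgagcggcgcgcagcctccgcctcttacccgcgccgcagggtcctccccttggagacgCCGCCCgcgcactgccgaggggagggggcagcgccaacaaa
Col4a2 window: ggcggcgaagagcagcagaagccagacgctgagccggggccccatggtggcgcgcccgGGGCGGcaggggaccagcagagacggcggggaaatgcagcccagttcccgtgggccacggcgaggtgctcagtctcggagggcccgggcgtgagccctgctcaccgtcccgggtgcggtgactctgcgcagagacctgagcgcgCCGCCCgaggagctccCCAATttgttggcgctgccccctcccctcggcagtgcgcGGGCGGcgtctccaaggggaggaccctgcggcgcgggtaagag
The Col4a1 window held 1 CCAAT and 1 GC box, and the Col4a2 window 1 CCAAT and 3 GC boxes, with no TATAAA in either. In the table of promoter windows, 38 windows of 300 bases matched 35 of the collagen genes. Of these, 60.5% held a GC box, 34.2% a CCAAT and 13.2% a TATAAA, against 35.7%, 37.4% and 13.6% of 32851 windows of all genes. These letters are a description of the windows and not of bound factors.

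Other pairs of chains from 1 collagen type held their ratio to different degrees. Col6a1 and Col6a2, partners in the beaded filaments of type VI collagen, both lie on the minus strand, so not head to head. Their ratio varied 1.36-fold, close to the 1.33-fold of Col4a1 to Col4a2. Col6a1 to Col6a2 ran from 1.5 to 2.04, and Col5a1 to Col5a2 from 0.944 to 1.48. These levels depend on the length used: with the longest transcripts Col6a1 to Col6a2 ran from 0.947 to 1.29, and the means of Col5a1 to Col5a2 went from 1.31 and 1.21 (NLC-MI and TgGRK5-MI) to 0.916 and 0.841, below 1. Col1a1 to Col1a2 ran from 1.80 to 3.45 and averaged 2.53 (SD 0.539) over the NLC-MI and 2.38 (SD 0.480) over the TgGRK5-MI libraries, n = 5 each. For this pair the exons of Col1a2 set the level (12426 bases for all exons, 5348 for the longest transcript), and with the longest transcripts the means were 1.21 and 1.13. Col4a5 and Col4a6, neighbours whose start sites lie 1343 bases apart, ran from 18.0 to 172, and Col8a1 to Col8a2 from 7.98 to 155. The highest of both came from NLC-MI replicate 3, in which Col4a6 and Col8a2 each had 4 counts. For each of the 7 pairs the groups overlapped.

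**Figure D4:**
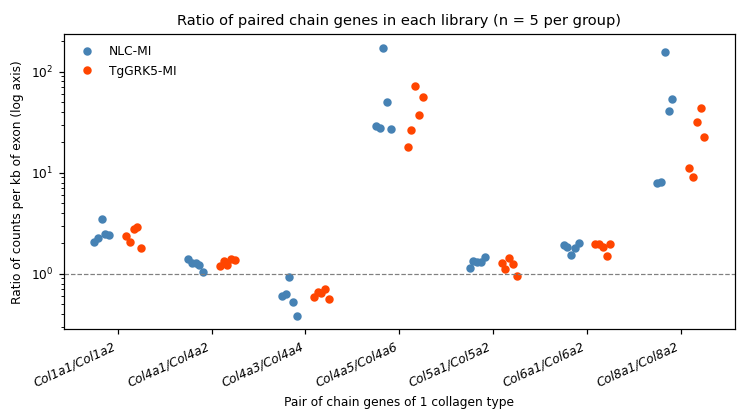
Ratio of counts per kilobase of exon between 2 chain genes of 1 collagen type (log axis) in each NLC-MI and TgGRK5-MI library, n = 5 per group, with a dashed line at 1. Col4a1/Col4a2 spans 1.05 to 1.39, and Col8a1/Col8a2 spans 7.98 to 155.

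Type VI, VIII and XV collagens and the FACIT genes Col12a1, Col14a1 and Col16a1 did not pass the test. The mean level of Col6a1 was 282 CPM (SD 168.6) over the NLC-MI libraries and 280.0 CPM (SD 108.8) over the TgGRK5-MI libraries, n = 5 each. Col6a5 was listed at 0 counts in NLC-MI replicate 3 and reached 11.9 CPM in TgGRK5-MI replicate 1. Col15a1, a basement membrane collagen of muscle and vessels, was highest in TgGRK5-MI replicate 4 at 828.5 CPM and lowest in NLC-MI replicate 5 at 131 CPM, with a fold of 0.959 (95% interval 0.491 to 1.87). Col8a2 was at 27.4, 22.7, 0.523, 2.02 and 0.393 CPM in NLC-MI and at 11.5, 24.5, 1.22, 3.02 and 4.40 CPM in TgGRK5-MI. Its high libraries were the same 3 as for Col3a1. Among the FACIT genes, Col14a1 spanned 28.99 to 240.2 CPM in NLC-MI and 32.1 to 263 CPM in TgGRK5-MI.

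Col22a1 and Col20a1, both FACIT collagens at the low end of detection, had the smallest p-values of the family. Col22a1 (ENSMUSG00000079022, chr15:71795795-72034227), known from the junctions of muscle with tendon, had 25, 23, 6, 10 and 19 counts in NLC-MI and 63, 41, 27, 9 and 36 counts in TgGRK5-MI. In CPM these were 1.10, 0.931, 0.785, 0.469 and 1.24 against 2.82, 1.79, 2.35, 0.969 and 1.93. Of 5 TgGRK5-MI libraries 4 lay above every NLC-MI library, and replicate 4, at 9 counts, lay among them. The fold was 2.19 (95% interval 1.32 to 3.63, p = 0.00553, edgeR adjusted p = 0.859), and the exact two-sided permutation test gave p = 0.0238. The unadjusted p stayed under 0.05 in all 19 alternatives that tested this gene, and the lowest adjusted p over edgeR, DESeq2 and limma was 0.16. It was not tested where each library had to hold 10 counts. Its library order differed from that of Col1a1: TgGRK5-MI replicate 3, among the lowest for Col1a1, was second highest here.

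Col20a1 (ENSMUSG00000016356, chr2:180986535-181018363) is a FACIT collagen for which little function is known. It had 23, 24, 5, 16 and 16 counts in NLC-MI and 9, 22, 4, 2 and 9 counts in TgGRK5-MI. At 0.960 CPM, TgGRK5-MI replicate 2 lay within the NLC-MI range of 0.654 to 1.05 CPM, and the other TgGRK5-MI libraries lay below it. The fold was 0.574 (95% interval 0.330 to 0.997, p = 0.0489, edgeR adjusted p = 1.00; exact two-sided permutation test, p = 0.0238). Its p was under 0.05 in 8 of the 19 alternatives that tested it. Its exons share 79 bases with BX649560.1 on the same strand, so reads there cannot be assigned to either gene by position.

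The genes that modify, fold, cleave, cross-link and bind collagen had a smaller median range between mice than the chains, and 0 of them had an adjusted p under 0.10 in edgeR. Of 43 such genes (prolyl and lysyl hydroxylases, chaperones, procollagen proteinases, lysyl oxidases and receptors) 41 passed the filter, and 1 was higher and 0 were lower in TgGRK5-MI at an unadjusted p under 0.05 in edgeR, near the 1.77% and 2.08% of all genes tested. The groups of 1 gene did not overlap, as for 1.00% of all genes tested. Their median log2 fold change was 0.038. The higher gene was Pcolce2, an enhancer of the proteinase that trims procollagen's end, at 33.4, 25.8, 20.8, 28.5 and 14.6 CPM in NLC-MI and 35.8, 45.2, 37.4, 37.3 and 34.2 CPM in TgGRK5-MI. The groups did not overlap, by a small margin between the lowest TgGRK5-MI library (34.2 CPM) and the highest NLC-MI library (33.4 CPM). The fold was 1.54 (95% interval 1.13 to 2.09, p = 0.00972, edgeR adjusted p = 0.982; exact two-sided permutation test, p = 0.00794, the smallest that 5 against 5 allows). Serpinh1, the collagen chaperone HSP47, averaged 903 CPM over the NLC-MI libraries and 916 CPM over the TgGRK5-MI libraries, and Lox, a cross-linking oxidase, averaged 186.5 and 199.8 CPM. The median ratio of the highest to the lowest library was 3.24 for this list.

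The summed myofibroblast markers followed an order of libraries close to that of the fibrillar genes. The summed fibroblast markers, in which Dcn weighed most, did so less closely. The summed level of the fibrillar genes was 21820, 23120, 5309, 7481 and 3790 CPM in NLC-MI and 13230, 23590, 3777, 8596 and 7505 CPM in TgGRK5-MI. The myofibroblast markers Postn, Acta2, Cthrc1 and Tnc summed to 4892, 4296, 1619, 1489 and 559 CPM in NLC-MI and to 2824, 4550, 1128, 2627 and 2065 CPM in TgGRK5-MI. The same 3 libraries were highest on both lists, and Postn alone held 3322 of the 4892 CPM in NLC-MI replicate 1. Fibroblast markers (Pdgfra, Tcf21, Dcn, Lum, Dpt and Thy1) spanned 357 to 966 CPM in NLC-MI and 469.5 to 923 CPM in TgGRK5-MI, and macrophage markers 499 to 1673 CPM and 884 to 1878 CPM. The fibroblast sum of TgGRK5-MI replicate 4 (818.7 CPM) was above that of NLC-MI replicate 2 (783.2 CPM), and NLC-MI replicate 4 was lowest (357 CPM). Dcn alone held 556.1 of the 818.7 CPM. For single genes, the SD over libraries of the log2 ratio to Col1a1 is smaller where a gene follows Col1a1 more closely. It ran from 0.384 (Lum) to 0.735 (Dcn) for fibroblast markers and from 0.43 (Postn) to 0.692 (Acta2) for myofibroblast markers. Gene by gene, these lists thus overlapped. Cardiomyocyte markers were highest in NLC-MI replicate 5 (87950 CPM) and TgGRK5-MI replicate 3 (62040 CPM), the lowest libraries of the fibrillar sum, and lowest in TgGRK5-MI replicate 2 (30870 CPM) and NLC-MI replicate 1 (30920 CPM). NLC-MI replicate 2, second highest for the fibrillar sum, was in the middle at 47180 CPM, above TgGRK5-MI replicates 4 (38130 CPM) and 5 (35760 CPM). At an unadjusted p under 0.05 in edgeR, 1 of 5 mural markers (Cspg4, a proteoglycan of pericytes, log2 fold change -0.62) and 1 of 6 cardiomyocyte markers (Ryr2, the calcium release channel, -0.93) were lower, where 2.08% of all genes tested were. None of the 6 fibroblast, 4 myofibroblast, 6 endothelial, 5 macrophage and 3 mesothelial markers passed that threshold. The edgeR adjusted p-values of Cspg4 and Ryr2 were 1.00 and 0.968.

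**Figure D5:**
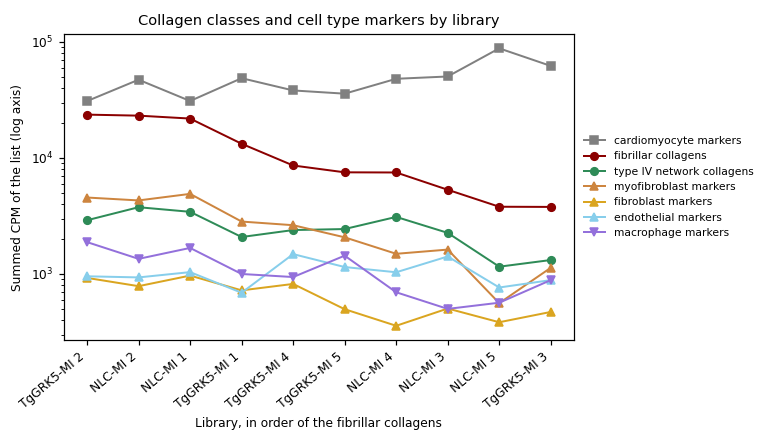
Summed CPM (log axis) of the fibrillar and type IV collagens and of 5 marker lists in each library, ordered by the fibrillar sum from TgGRK5-MI replicate 2 to TgGRK5-MI replicate 3. The myofibroblast sum is highest in the same 3 libraries as the fibrillar sum, and the cardiomyocyte sum is highest in the 2 libraries at the right end.

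Type IV collagen summed to 1153 to 3754 CPM in NLC-MI and 1316 to 2899 CPM in TgGRK5-MI, a 3.26-fold range where the fibrillar sum spanned 6.25-fold. The summed endothelial markers (Pecam1, Cdh5, Kdr, Tie1, Egfl7 and Emcn) spanned 2.15-fold and the summed mural markers 1.58-fold. Single genes spanned 1.75-fold to 3.76-fold on the endothelial list and 2.09-fold to 3.62-fold on the mural list. Both sums were highest in TgGRK5-MI replicate 4, whereas type IV collagen was highest in NLC-MI replicate 2 (3754 CPM). Single mural markers had other top libraries, such as NLC-MI replicate 3 for Rgs5 (598.7 CPM) and NLC-MI replicate 2 for Pdgfrb (186.5 CPM). Mesothelial markers ranged from 13.5 to 68.2 CPM, highest in TgGRK5-MI replicates 1 and 2. How much of the collagen level came with the amount of other cells in each preparation was not tested. The fibroblast marker level of each library was also used as a covariate in edgeR. For this it was the sum of the log2 CPM of the 6 genes, not the summed CPM given above. Col22a1 was again the higher gene at an unadjusted p under 0.05 (1 of 36, with 4.65% of all genes tested). Col20a1, Col4a5, Col26a1 and Col27a1 were then lower (4 of 36, with 2.94% of all genes tested), and 0 had an adjusted p under 0.10.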

How the data were processed

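Cardiomyocyte RNA of 10 mice, 1 library each (Illumina TruSeq), was grouped as NLC-MI or TgGRK5-MI from the labels. The authors deposited whole-number counts per Ensembl gene, without normalization. The submitters' processing notes name Bowtie2, RSEM 1.2.31, DESeq2 and mm10, with no role or order, so the counts may be rounded estimates, in which reads shared by genes were split. The strand setting and annotation version are not given in the sources used here. Symbols, positions and lengths came from GENCODE M21 (51596 of the identifiers), and promoter and microRNA sequences from RefSeq on GRCm38.p6, where 35 of 44 genes had a promoter window.

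In R 4.3.3 with edgeR 4.0.16, counts were normalized with TMM, filtered with filterByExpr and tested with the quasi-likelihood F test with Benjamini-Hochberg adjustment over 15232 genes. CPM values use the TMM factors. Thresholds were an unadjusted p under 0.05 and an adjusted p under 0.10. Exact two-sided permutation tests used log2 CPM with a prior count of 2. All scripts that test were tested on simulated data. A count of 3 was the floor, and the depth of each library limits low genes most.

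The collagen genes, classes and marker lists were chosen with earlier results of these data known. Named genes were collagen genes with an unadjusted p under 0.05, the 10 highest per kilobase, both genes of the 7 chain pairs, list genes with an unadjusted p under 0.05, and Grk5. Other collagen genes were named after their values were seen. Alternatives were DESeq2 1.42.0, limma-voom (limma 3.58.1), RLE or no size factors, a robust fit, stricter and no filters, covariates, the longest transcript as length, the replicate number as a block, and each library left out in turn. No 2 libraries of a group agreed within sampling noise. The result for 1 marker list is not reported here.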

Additional observations from a re-analysis of the deposited data

How the results depend on the processing

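No collagen gene had an adjusted p under 0.10 in the main fit or in any of the 20 alternatives run. The count of higher genes at an unadjusted p under 0.05 was 1 in all of these but a filter that asked for 10 counts in each library, which gave 0 because Col22a1 was not tested. The count of lower genes, 1 in the main fit, was 0 with library size alone, with DESeq2, with that filter and without a filter, 3 with limma-voom (4.41% of all genes lower and 7.47% higher there, against 2.08% and 1.77% in the main fit), 4 with the fibroblast covariate (2.94% of all genes lower), and 0 to 1 with each library left out. The count of collagen biosynthesis genes, 1 in the main fit, was 2 with DESeq2 and without a filter on low counts, and 1 to 2 with each library left out. The cause was not tested. Over the alternatives, 55 log2 fold changes of named collagen genes had another sign than in the main fit, none of them called, and 301 kept their direction. That of Col22a1 stayed between 0.95 and 1.28 and that of Col20a1 between -1.24 and -0.67.

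In the fit with a replicate block, 1 collagen gene was higher and 1 lower at an unadjusted p under 0.05, where 2.04% and 1.93% of all genes tested were. With this block 0 collagen genes had an adjusted p under 0.10, and their median log2 fold change was -0.0049. The numbers name different mice. Same-numbered libraries had correlations over genes of 0.0717, 0.662, 0.381, -0.341 and 0.0848, and 1 of 5 libraries correlated best with its own number. The 10 mice, counts of at most 63 for Col22a1 and 24 for Col20a1, and wide fold intervals limit what could be detected.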
